A study of Mus musculus with 6 samples.

Results

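The genes described here are Fos, Fosb, Fosl2, Jun, Junb and Jund, 6 of the 55487 genes in a table of raw read counts from mouse visual cortex. They were chosen by name, as the genes whose Ensembl identifiers map in GENCODE (mouse, GRCm38) to the Fos and Jun family symbols. All 6 were found and all 6 passed the filter on low counts. A further family gene, Fosl1, had 0 to 3 counts in a library, did not pass the filter and was not among them.

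The study compared 3 genotypes of a mouse line with the allele Mmp9em1Iimcb, here UTRmut, which alters an untranslated region (UTR) of the gene of the secreted matrix metalloproteinase 9. Which of the UTRs was altered is not given in the labels. There were 2 libraries each of UTRmut/UTRmut mice (UTRmut, 2 mutant alleles), UTRmut/WT mice (het, 1 mutant allele) and WT/WT mice (WT, 0 mutant alleles). In each genotype replicate 1 was a female and replicate 2 a male. All mice were of the strain B6.CBA/Tar, were dissected at postnatal day 28 and received no treatment named in the labels, and total RNA was sequenced. The labels do not say whether a library pooled animals, so the spread behind each p-value is that of these libraries alone and may in part be technical.

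AP-1 is a family of dimeric transcription factors. Fos proteins pair only with a partner such as a Jun protein, while Jun proteins can also pair among themselves, and the dimers bind a short palindrome in promoters and enhancers. In cortical neurons Fos, Fosb and Junb are immediate-early genes that synaptic activity and calcium entry switch on within minutes, Fosl2 follows more slowly, and Jund is expressed more steadily. AP-1 also drives transcription of Mmp9 and of its inhibitor Timp1.

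Total counts per library were 9500090 to 11966579, and 23353 to 23845 genes had at least 1 count. Mmp9 itself was scarce, with 8 and 16 counts in UTRmut, 9 and 9 in het and 4 and 9 in WT, with a log2 fold of 0.86 (SE 0.58) in UTRmut relative to WT that did not pass (adjusted p = 0.999, edgeR quasi-likelihood test with Benjamini-Hochberg adjustment). A mutation in a UTR need not change a gene's count, so this does not check the genotype labels. Neuronal markers (Rbfox3, Snap25, Syt1, Slc17a7, Gad1 and Gad2) summed to 4710 to 5125 CPM (counts scaled to library size with TMM factors), and all 8 genes listed for the cortical layers were detected. Hippocampal markers summed to 47.4 to 62.2 CPM and those of thalamus and striatum to 50.5 to 70.6 CPM. Genes of these lists can also be expressed in cortex. The WT male had 48.5 CPM of choroid plexus markers, against 2.14 to 9.99 CPM in the other libraries.

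The promoters of 4 members are shown because each carries a sequence related to the cyclic AMP response element (CRE), the site through which calcium and cyclic AMP signals reach immediate-early genes. The windows are RefSeq promoter sequences of GRCm38.p6, which run from 250 bases before to 50 bases after a gene's start, and all 6 members had one. Capitals mark the half-site TGACG, or in Jun the 8-base variant TGACATCA, and all are written 5′ to 3′ on the gene's own strand.
Fos, 129 bases upstream of the start: ggggcgtagagtTGACGacagagcgcccgc
Fos, 66 bases upstream of the start: agttccgcccagTGACGtaggaagtccatc
Fosb, 60 bases upstream of the start: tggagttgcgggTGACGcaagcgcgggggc
Junb, 106 bases upstream of the start: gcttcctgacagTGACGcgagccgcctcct
Jun, 45 bases upstream of the start: aagcctcggggTGACATCAtgggctatttt
The Fos sequences lie at chr12:85473749-85473778 and chr12:85473812-85473841 on the plus strand. The others lie on the minus strand, in Fosb at chr7:19310088-19310117, in Junb at chr8:84978837-84978866 and in Jun at chr4:95052249-95052278.

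Searched on both strands, TGACG was found in the windows of 3 of the 6 members and in 20.81% of 32851 promoter windows of the same length. TGACATCA, a letter string chosen after the sequences were read, was found in 1 member and in 3.619% of windows. Every TGACG was on the gene's own strand. The full CRE (TGACGTCA), which contains the half-site, was in none of the 6 windows and in 1.79% of all. The AP-1 site itself (TGANTCA) was in none of the 6 and in 7.808% of all, and the CArG box, the binding site of serum response factor, in none and in 1.629%. No match in these windows says only that the letters are not there.

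Positions are those of GENCODE on GRCm38. Fosb (ENSMUSG00000003545) spans 19302696 to 19310051 of chromosome 7 on the minus strand, and Fosl2 (ENSMUSG00000029135) spans 32135801 to 32157842 of chromosome 5 on the plus strand. Jun (ENSMUSG00000052684) spans 95049034 to 95052222 of chromosome 4 on the minus strand. Junb (ENSMUSG00000052837) and Jund (ENSMUSG00000071076) both lie on chromosome 8, Junb from 84974484 to 84978718 on the minus strand and Jund from 70698949 to 70700616 on the plus strand.

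The members differed in level. Per kilobase of annotated exon, and averaged over the 6 libraries, Fos had 58.1 CPM per kb, Junb 49.9, Jund 27.6, Fosl2 13.7, Jun 10.9 and Fosb 5.24. Fos (42.4 to 80.8 CPM per kb over the libraries) and Junb (36.4 to 76.9) overlapped, and so did Fosl2 (7.58 to 17.1) and Jun (8.32 to 13.0). Jund (20.5 to 34.4) lay below every value of Junb and above every value of Fosl2, and Fosb (2.47 to 6.70) lay below every value of Jun. The exon lengths count every annotated isoform, 9680 bases for Fosl2 and 6243 for Fosb, so genes with long alternative ends read low on this scale.

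**Figure D1:**
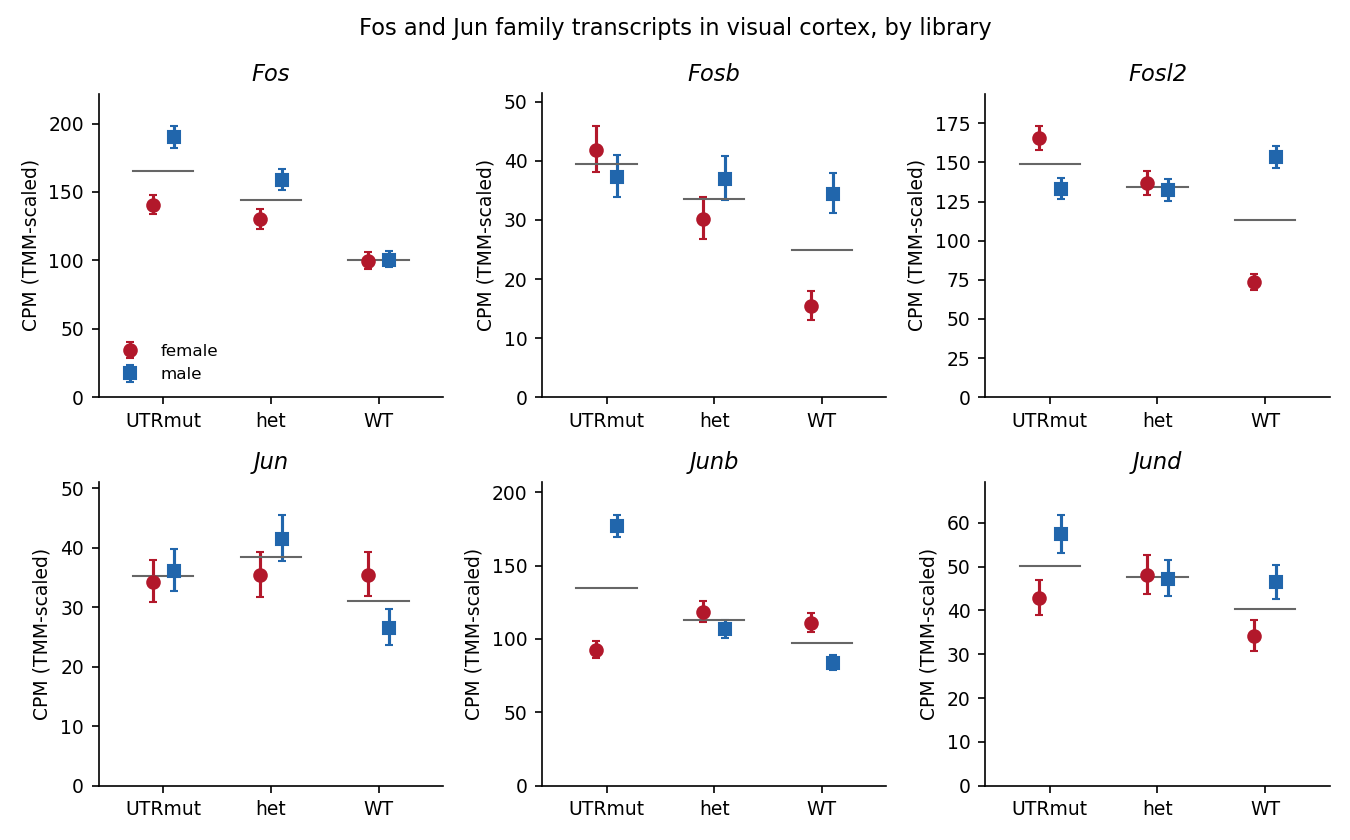
TMM-scaled CPM of the 6 genes (y axes, from 0) in UTRmut, het and WT libraries (x axes). Circles are females and squares males, bars are exact Poisson 95% intervals of the count (counting error only), and grey lines are means of 2 libraries. Fos lies at 130.0 to 190.0 CPM in the 4 carriers, above 99.8 and 100.6 CPM in WT, whereas the low mean of Fosb and Fosl2 in WT comes from the WT female alone.

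Fos, the founding member and a widely used marker of recently active neurons, was the one gene of the 6 that was higher in all 4 carriers than in both WT libraries. The gene (ENSMUSG00000021250) lies on chromosome 12, from 85473890 to 85477273 on the plus strand. It had 141 CPM in the UTRmut female and 190.0 in the UTRmut male, 130.0 and 159 CPM in the het female and male, and 99.8 and 100.6 CPM in the WT female and male. The WT libraries lay within each other's counting error, no carrier overlapped them, and in each sex the order of the levels followed the number of mutant alleles. Fos averaged 165 ± 35.0 CPM in UTRmut, 144 ± 20.4 in het and 100.2 ± 0.549 in WT (SD, n = 2 each). The same arrangement, all 4 carriers above both WT libraries, was seen for 5.04% of 16119 genes tested.

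The fit did not call Fos over all genes. Relative to WT its log2 fold was 0.72 (SE 0.14) in UTRmut and 0.53 (SE 0.14) in het, with a slope of 0.36 (SE 0.08) per mutant allele (adjusted p = 0.999, 0.9999 and 0.998, edgeR with Benjamini-Hochberg adjustment). By unadjusted p it ranked 7, 24 and 9 among the 16119 genes. With sex added to the fit as a block the values were 0.71, 0.52 and 0.35, and none passed (edgeR, Benjamini-Hochberg adjusted p = 0.0820, 0.815 and 0.314). UTRmut and het overlapped, with a log2 fold of 0.19 (SE 0.14) between them. DESeq2, another count test, called Fos for UTRmut against WT and per allele (Benjamini-Hochberg adjusted p = 0.00419 and 0.00655). In the same comparisons red blood cell markers were lower with the mutant allele, at 149 and 96.6 CPM in UTRmut, 168 and 175 in het, and 179 and 231 in WT, and their part in the result was not tested. Over 14 alternatives to the fit the log2 fold for UTRmut against WT stayed positive, at 0.49 to 0.93, with adjusted p from 2.39e-09 to 0.9999. It passed with DESeq2, with no filter on low counts and on leaving out the UTRmut female, the lower of the UTRmut libraries. That last fit has 1 UTRmut library, which is assumed to vary like those of the other genotypes. In het against WT it passed in 1 of 14 alternatives, without a filter on low counts (adjusted p = 0.000946, range over the alternatives 0.000946 to 0.9999).

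Fosb, whose truncated delta form accumulates with repeated stimulation, was low in a single library. It had 41.8 CPM in the UTRmut female and 37.3 in the UTRmut male, 30.2 and 37.0 in het, and 15.4 and 34.5 in WT. Both UTRmut values lay above both WT values and above both het values, yet the WT male was close to the carriers and only the WT female stood far below. The WT female had 160 counts (exact Poisson 95% interval 13.1 to 18.0 CPM) and the WT male 400 (31.2 to 38.0 CPM). Fosb averaged 39.6 ± 3.24 CPM in UTRmut, 33.6 ± 4.79 in het and 24.9 ± 13.5 in WT (SD, n = 2 each). Relative to WT its log2 fold was 0.66 (SE 0.39) in UTRmut and 0.42 (SE 0.39) in het, with adjusted p of 0.999 and 0.9999 (edgeR, Benjamini-Hochberg).

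Fosl2, which encodes the Fos-related antigen Fra-2, had the same outlying library. It had 165 CPM in the UTRmut female and 133 in the UTRmut male, 137 and 132 in het, and 73.3 and 153 in WT. The groups overlapped, because the WT male was higher than 3 of the 4 carriers. Fosl2 averaged 149 ± 22.8 CPM in UTRmut, 134 ± 3.19 in het and 113 ± 56.6 in WT (SD, n = 2 each). In UTRmut the log2 fold over WT was 0.39 (SE 0.40) and in het 0.24 (SE 0.41), with adjusted p of 0.999 and 0.9999 (edgeR, Benjamini-Hochberg). Without the WT male the log2 folds in UTRmut against WT were 1.37 for Fosb and 1.04 for Fosl2. These fits have 1 WT library, the low WT female, and take the spread from the other genotypes. Their p-values would not cover variation among WT libraries and are left out. Without the WT female the log2 folds were 0.20 and -0.040. In het against WT the corresponding values were 1.13 and 0.88 without the WT male, and -0.035 and -0.19 without the WT female.

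Jun, the partner of Fos in the classical dimer and a target of the JNK kinases, varied least between libraries, with 1.57-fold between the highest and the lowest. It had 34.3 and 36.1 CPM in the UTRmut female and male, 35.4 and 41.6 in het, and 35.5 and 26.5 in WT. The WT male was the lowest library and the WT female lay within the range of the carriers. Over WT the log2 fold was 0.19 (SE 0.14) in UTRmut and 0.32 (SE 0.14) in het, and neither passed (edgeR). It was -0.13 (SE 0.14) for UTRmut against het, the one negative value among the members in the 3 genotype comparisons.

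Junb, an immediate-early Jun protein that can restrain the activity of Jun, was set apart by the UTRmut male. It had 92.6 CPM in the UTRmut female and 177 in the UTRmut male, 119 and 107 in het, and 111 and 83.7 in WT. The UTRmut male was 1.91-fold above the UTRmut female, and without it all remaining libraries lay between 83.7 and 119 CPM. Junb averaged 135 ± 59.6 CPM in UTRmut, 113 ± 8.34 in het and 97.3 ± 19.3 in WT (SD, n = 2 each). The log2 fold of 0.47 (SE 0.37) for UTRmut against WT became -0.067 without the UTRmut male and 0.87 without the UTRmut female, and passed in none of 14 alternatives (edgeR or DESeq2, Benjamini-Hochberg adjusted p 0.118 to 0.9999). For het against WT it was 0.21 (SE 0.38).

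Jund, the Jun protein with the steadiest expression in many tissues, had 42.9 and 57.3 CPM in the UTRmut female and male, 48.1 and 47.3 in het, and 34.2 and 46.4 in WT. Both het libraries lay just above the WT male, while the UTRmut female lay below it. Over WT the log2 fold was 0.31 (SE 0.17) in UTRmut and 0.24 (SE 0.17) in het, and neither passed (edgeR).

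There are 3 members that overlap a gene on the other strand, and whether the counting used strand is not given in the sources used here. Jun shares 689 bases with Junos, which had 5 to 20 counts in a library, and Jund shares 919 bases with Gm11175, which had 5 to 23. Junb shares 351 bases with Prdx2, a peroxiredoxin gene with 128 to 170.0 CPM. In the UTRmut male Prdx2 had 156 CPM, against 128 CPM in the WT female, the lowest library, and 170.0 CPM in the het male, the highest. Its part in the Junb counts was not tested.

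**Figure D2:**
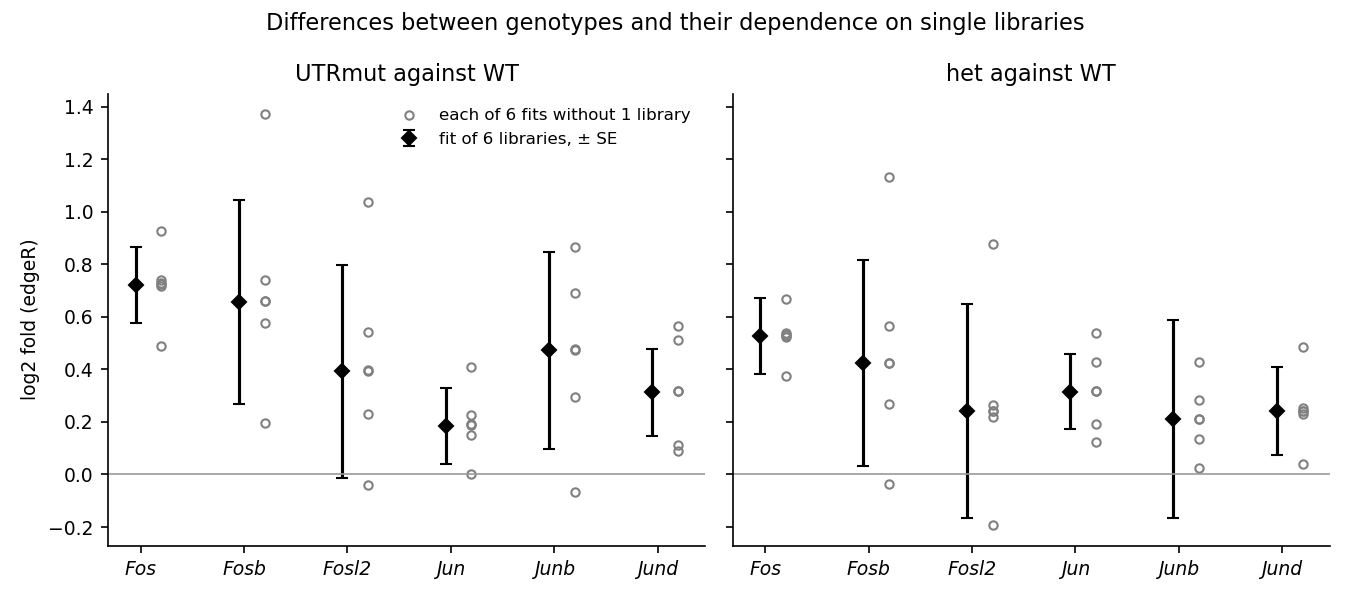
Log2 folds of the 6 genes (y axis, edgeR) for UTRmut against WT and het against WT. Diamonds with bars are the fit of all 6 libraries ± SE, and open circles are the 6 fits that each left out 1 library. For Fos the circles stay between 0.37 and 0.93 in both comparisons, whereas those of Fosl2 reach from -0.040 to 1.04 in UTRmut against WT and from -0.19 to 0.88 in het against WT.

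Across the members, 0 of 6 passed in UTRmut against WT, where 0.0062% of all genes tested passed (edgeR, Benjamini-Hochberg). At an unadjusted p under 0.05 it was 1 of 6, Fos, against 2.71% of all genes, and DESeq2 called 1 of 6, against 0.0496%. All 6 log2 folds were positive, against 47.9% of all genes, and their median was 0.43, against -0.01. Fos and Fosb had UTRmut values above all WT values, as had 14.0% of all genes.

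In het against WT 0 of 6 passed, against 0.0124% of all genes (edgeR, Benjamini-Hochberg), and DESeq2 called 0 of 6, against 0.0186%. At an unadjusted p under 0.05 there were Fos and Jun, against 2.37% of all genes. All 6 were positive, with a median of 0.28, against 48.9% and a median of -0.0038 over all genes. Fos and Jund had het values above all WT values, as had 13.4% of all genes. Both comparisons use the same 2 WT libraries.

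In UTRmut against het 0 of 6 passed (0.0124% of all genes), 0 of 6 had an unadjusted p under 0.05 (2.8% of all genes) and DESeq2 called 0 of 6 (0.0434%). Of the 6 log2 folds 5 were positive, against 49.7% of all genes, with a median of 0.17. Fosb alone had UTRmut values above all het values, as had 16.4% of all genes. Per mutant allele 0 of 6 passed in edgeR (0.0% of all genes), Fos had an unadjusted p under 0.05 (3.12% of all genes) and was called by DESeq2 (0.0248%). All 6 members were positive per allele, against 47.8% of all genes, with a median log2 change of 0.22.

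In females relative to males, fitted with genotype as a covariate, 0 of 6 passed (0.0372% of all genes passed), and DESeq2 called 0 of 6 (0.062%). Jun alone, 1 of 6, had a positive log2 fold, against 49.6% of all genes. Fos had a log2 fold of -0.25 (SE 0.09) and Jund of -0.28 (SE 0.10), both with an unadjusted p under 0.05 (6.99% of all genes) and adjusted p of 0.635 and 0.666 (edgeR, Benjamini-Hochberg). For Fos both WT libraries were alike. Without either WT library the fit rests on the UTRmut and het pairs. The log2 folds were then -0.36 and -0.37 for Fos and -0.40 in both for Junb. Fits that leave 1 library in a genotype are given here by log2 fold only, without their p-values. For Fos the female was lower in both of these pairs, with a difference of -0.43 log2 units in UTRmut and -0.29 in het. For Junb the pairs went opposite ways, at -0.93 in UTRmut and 0.15 in het, and without either UTRmut library its log2 fold was 0.28. Over 13 alternatives the log2 fold ranged from -0.37 to -0.16 for Fos and from -0.40 to 0.28 for Junb.

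The change per mutant allele differed between females and males for 3 members. This test fitted a slope in the number of mutant alleles for each sex, with 1 library for each genotype and sex and 2 residual degrees of freedom. The spread behind its p-values is therefore how far the libraries of a sex lie from a straight line, not variation between replicates. Over all genes 1.2% passed, 0.893% with the more positive slope in females and 0.31% with the more positive slope in males. Of the 6 members Fosb and Fosl2 passed with the more positive slope in females, by 0.65 (SE 0.11) and 0.68 (SE 0.11) log2 units per allele (edgeR, Benjamini-Hochberg adjusted p = 0.00820 and 0.0211). Junb passed the other way, at -0.67 (SE 0.10; adjusted p = 0.00487). DESeq2 called the same 3 genes, against 1.26% of the 6119 genes to which it gave an adjusted p here, fewer than the 16119 tested in edgeR. At an unadjusted p under 0.05 there were 4 of 6, these and Fos, against 13.6% of all genes. Fos had -0.21 (SE 0.09), Jun -0.24 (SE 0.14) and Jund 0.0050 (SE 0.12), and these did not pass (adjusted p = 0.278, 0.507 and 0.994). Without the UTRmut male the differences of Fos and Jun were larger in size, at -0.41 and -0.67. That fit has 1 UTRmut library, and its p-values are left out.

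Within a sex the values ran in different directions. In the female pair Fosb was 2.72-fold and Fosl2 2.25-fold higher in UTRmut than in WT, whereas in the male pair the ratios were 1.08 and 0.867. Junb was 0.835-fold in the female pair and 2.11-fold in the male pair. Fos was 1.41-fold in females and 1.89-fold in males, and Jund 1.25-fold and 1.24-fold. Jun was 0.966-fold in females and 1.36-fold in males. Fosl2, Jun and Junb, 3 of 6, had opposite directions in the 2 pairs, as had 55.6% of all genes tested.

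With 1 library for each genotype and sex, a difference between the sexes and a single library that stands apart cannot be told apart. Each of the 3 calls was lost without 1 library, in fits where the number of calls over all genes fell too. Without the WT female, the low library for Fosb and Fosl2, their values were 0.41 and 0.38, and neither gene passed. Their edgeR adjusted p was then 0.479 and 0.282, the highest over 12 alternatives, where the lowest was 2.37e-06 and 2.09e-15. Without the UTRmut female Junb was at -0.45 and no longer passed, and over 12 alternatives it ranged from -0.90 to -0.45. Without the UTRmut male, the high library for Junb, Junb was at -0.48.

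**Figure D3:**
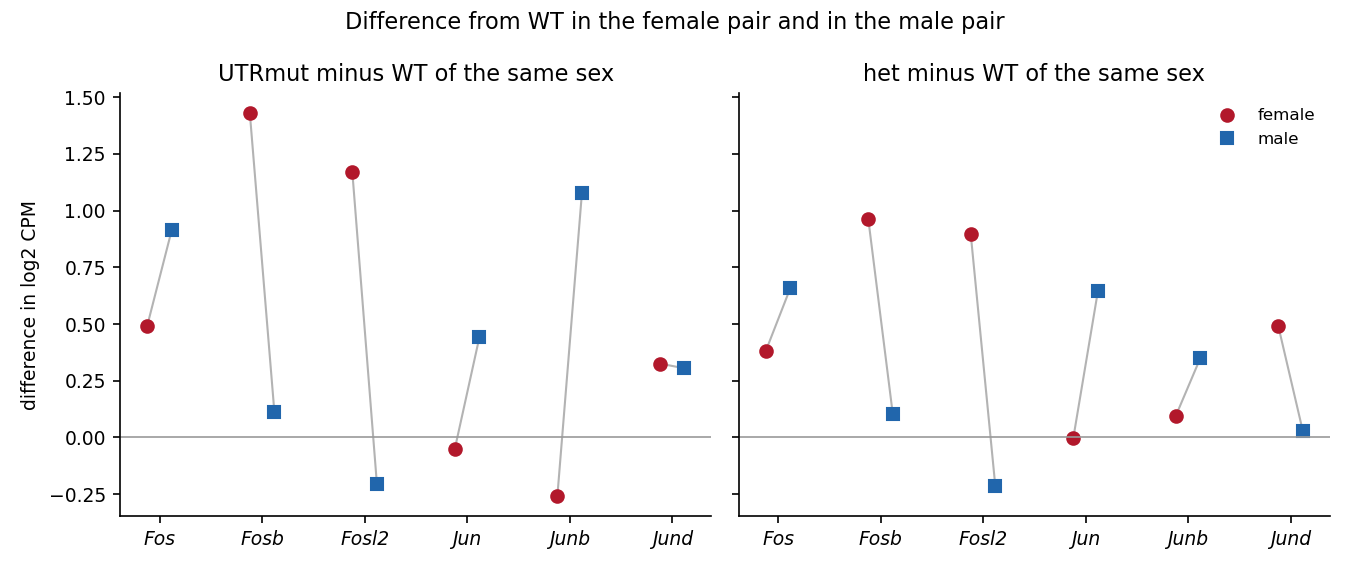
Difference in log2 CPM (y axis) between a carrier and the WT library of the same sex, for UTRmut (left) and het (right). Circles are the female pair and squares the male pair, each 1 library against 1, joined for each gene. Fos is positive in all 4 pairs, Fosb and Fosl2 are above 0.8 only in the female pairs, and Junb is at 1.08 only in the UTRmut male pair.

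Other properties of the libraries moved with these values. The WT female was the lowest library for 4 members, Fos, Fosb, Fosl2 and Jund, as it was for 21.6% of all genes tested. It had the highest share of counts from TEC genes, a GENCODE class whose existence is yet to be tested (0.751%, against 0.452 to 0.68% in the other 5) and from long noncoding RNA (3.01%, against 2.17 to 2.93%). It also had the lowest sums of astrocyte (881 CPM, against 990 to 1057), microglial (162 CPM, against 181 to 189) and meningeal markers (42.9 CPM, against 54.0 to 91.5). Neuronal markers there were at 4745 CPM, within the range of the others. In the difference between the sexes, where 1.2% of all genes passed, some marker genes passed too. Aqp4 of astrocytes, Col1a2 of meninges and the haemoglobin genes Hbb-bs and Hbb-bt had the more positive slope in females. Ppp1r1b of thalamus and striatum had the more positive slope in males. DESeq2 called 1 of these 5, Hbb-bs. The UTRmut male was the highest library for Fos, Junb and Jund, as it was for 17.4% of all genes. It had the highest share of ribosomal RNA, mitochondrial ribosomal RNA included (8.88%, against 5.11 to 6.57%), and of all mitochondrial genes (9.66%, against 5.91 to 7.34%). It also had the lowest sum of red blood cell markers (96.6 CPM, against 149 to 231). The sums of these markers also differed by genotype, as given above for Fos, with no overlap between UTRmut and the other genotypes. All 4 tested genes of that list were lower in UTRmut than in WT (median log2 fold -0.90) and had negative slopes per allele (median -0.45), each with an unadjusted p under 0.05 in both. In edgeR 0 of them passed in either comparison, and DESeq2 called 1, Hba-a1, in both. The part of these differences in the results was not tested. In bulk tissue fewer cells of a type and less RNA per cell cannot be told apart.

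The members did not share one pattern. As a measure of likeness, the root mean square difference between 2 genes in log2 CPM, each centred on its mean over the 6 libraries, was taken against 11525 other genes with at least 5 CPM on average. Fosb and Fosl2 were the closest pair, at 0.16, with Fosl2 ranking 5 among all genes in likeness to Fosb and Fosb 38 in likeness to Fosl2. Fosb and Junb were the farthest pair, at 0.59. Fos was nearest to Jund among the members (0.22, rank 102).

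The genes most like Fosl2 were Mas1 (0.04), Bdnf (0.06) and Arc (0.07). Mas1 encodes a receptor for angiotensin 1-7, Bdnf the activity-induced growth factor and Arc a postsynaptic immediate-early protein. All 3 had their lowest value in the WT female. Bdnf had 81.6 and 74.9 CPM in UTRmut, 74.4 and 68.6 in het, and 39.6 and 77.7 in WT, and Arc had 1103 and 974, 861 and 872, and 477 and 979 CPM. Arc (0.12), Mas1 (0.13) and Lipg, an endothelial lipase gene (0.15), were the nearest to Fosb.

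The genes most like Fos were Zfp414 (0.10), Etv4, an ETS transcription factor gene (0.12), and Dbndd2 (0.14). Dbndd2 had 51.9 and 57.5 CPM in UTRmut, 50.4 and 53.3 in het, and 40.1 and 34.6 in WT. Nearest to Jun were Bclaf3 (0.06), Nsun6 (0.07) and Cebpzos (0.07). Nearest to Junb were the histone gene Hist3h2ba (0.11), the noncoding RNA Zfas1 (0.12) and Gm23935 (0.16). Nearest to Jund were Mrpl52 (0.03), a mitochondrial ribosomal protein gene, Pax6 (0.06) and Romo1 (0.07). These are descriptions over 6 libraries, with no test.

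Genes around AP-1 were described from lists chosen by function, with earlier results of these data known. Counts of positive genes in these lists are therefore descriptions only. Of 12 tested partners that can join AP-1 dimers (ATF, BATF, JDP and MAF proteins among them), 0 passed in UTRmut against WT. There were 0 at an unadjusted p under 0.05 and 0 in DESeq2, and 9 were positive (median 0.09), against 47.9% of all genes. Atf3, a stress-induced partner, had 8 and 18 counts in UTRmut, 10 and 9 in het and 6 and 6 in WT, and a log2 fold of 1.07 (SE 0.58). Atf2 was at 0.16 (SE 0.08) and Maf at 0.24 (SE 0.14). In the difference between the sexes 1 of 12 passed, against 1.2% of all genes. This was Atf4, an effector of the integrated stress response, at 0.37 (SE 0.08; edgeR, Benjamini-Hochberg adjusted p = 0.0245), and DESeq2 called 0 of the list.

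Of 29 kinases and transcription factors upstream of AP-1, such as MAP kinases, SRF, ELK, MEF2 and CREB, 0 passed in UTRmut against WT (0 at an unadjusted p under 0.05, 0 in DESeq2) and the median was 0.02. Crebbp, the CREB coactivator, was at -0.15 (SE 0.10), Mef2a at 0.12 (SE 0.09) and Mrtfa, a coactivator of SRF, at -0.18 (SE 0.12). In the difference between the sexes 2 of 29 passed, against 1.2% of all genes, both with the more positive slope in males. These were Mapk3, which encodes the kinase ERK1, and Rps6ka5, which encodes the histone kinase MSK1, at -0.41 (SE 0.09) and -0.55 (SE 0.11; edgeR, Benjamini-Hochberg adjusted p = 0.0423 and 0.0170). DESeq2 called 0 of the list there.

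Of 16 tested genes reported elsewhere as AP-1 targets, 15 were positive in UTRmut against WT, against 47.9% of all genes. Their median was 0.26, against -0.01 over all genes. In this list 0 passed, 2 had an unadjusted p under 0.05 (2.71% of all genes) and DESeq2 called 0. Rgs2, a brake on G protein signalling, had 69.3 and 66.1 CPM in UTRmut, 62.8 and 69.9 in het, and 47.4 and 60.6 in WT (log2 fold 0.32, SE 0.12). Pdyn, the precursor of dynorphins, had 41.4 and 43.2 CPM in UTRmut, 35.4 and 35.1 in het, and 36.7 and 33.4 in WT (0.27, SE 0.11). Its UTRmut libraries lay above all others, whereas for Rgs2 a het library was highest. Scg2, the precursor of secretoneurin, was at 0.24 (SE 0.11), and the WT male was above the het male. Mmp3 and Mmp10 were at 0 counts in every library.

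Of 21 other rapid immediate-early genes 19 were positive in UTRmut against WT, against 47.9% of all genes, with a median of 0.32. In this list 0 passed, 7 had an unadjusted p under 0.05 (2.71% of all genes) and DESeq2 called 0. Egr2 was at 0.80 (SE 0.23), Gadd45b at 0.60 (SE 0.17) and Nr4a3 at 0.43 (SE 0.15). In the difference between the sexes 3 of 21 passed, against 1.2% of all genes, each with the more positive slope in females. These were Egr1 (0.55, SE 0.07), Arc (0.61, SE 0.10) and Ier5 (0.38, SE 0.09), at adjusted p of 0.000655, 0.0194 and 0.0447 (edgeR, Benjamini-Hochberg). DESeq2 called 3, Egr1, Egr3 and Arc, against 1.26% of the genes to which it gave an adjusted p. Fosb and Fosl2 had the same sign. Relative to the mean of the 6 libraries on the log2 scale, the list's median level was 0.11 and 0.28 in the UTRmut female and male, 0.06 and -0.01 in het, and -0.48 and 0.03 in WT. The median of the 6 members was 0.03 and 0.29 in UTRmut, 0.06 and 0.15 in het, and -0.41 and -0.18 in WT. The value in the WT male is the midpoint of a split, with Fosb (0.14), Fosl2 (0.26) and Jund (0.03) above their mean there and Fos (-0.40), Jun (-0.38) and Junb (-0.41) below it. Of the 6 members Fos alone had both WT libraries below all carriers.

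**Figure D4:**
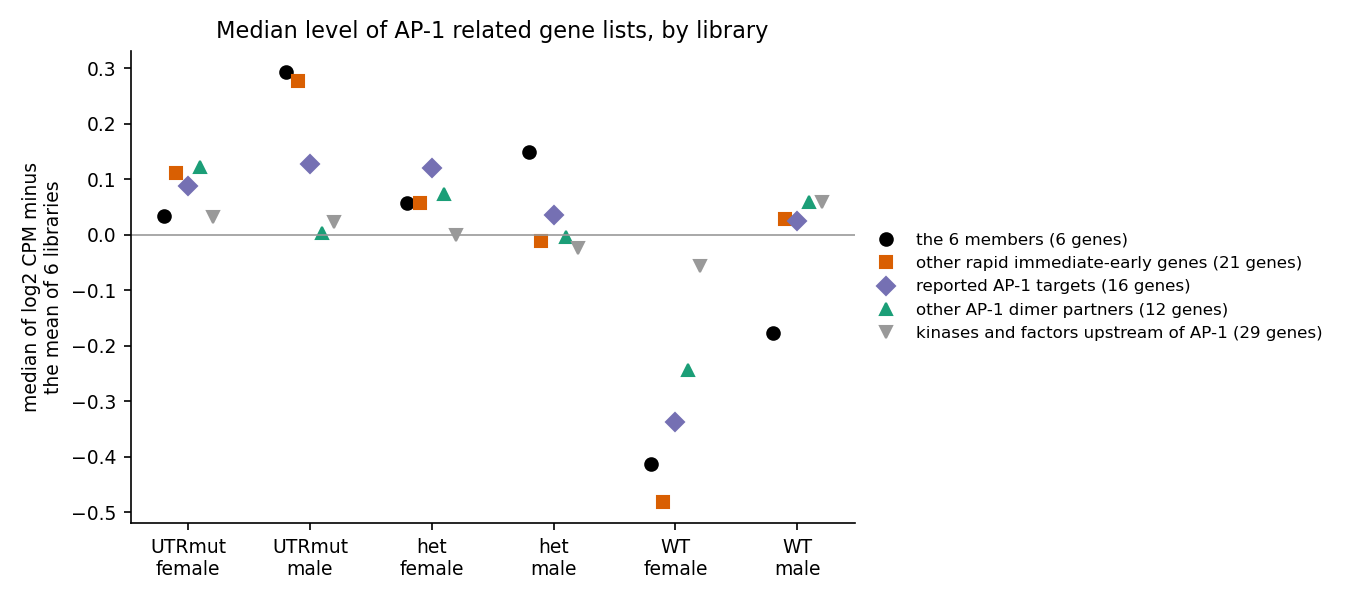
Median over each list (y axis) of log2 CPM minus the gene's mean over the 6 libraries, by library (x axis, genotype and sex). Each symbol is 1 list, with the number of genes tested in the legend. The WT female is lowest for all 5 lists, from -0.48 for rapid immediate-early genes to -0.06 for upstream kinases and factors, and in the WT male the median of the 6 Fos and Jun family genes is -0.18, between 3 genes above their mean and 3 below it.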

How the data were processed

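Visual cortex RNA was measured in 6 libraries, 2 per genotype, from a stranded TruSeq total RNA kit per the labels' protocols. The authors deposited raw counts of reads for each Ensembl gene, with no normalisation and 1 column per library. The submitters' processing notes name HTSeq 0.6.0, GATK 4.2.3.0, HISAT2, Trimmomatic 0.39 and GRCm38 without saying what each did. For the annotation release and the strand setting, the answer is not given in the sources used here. GENCODE M21 supplied symbols for 55227 of 55487 identifiers, positions and exon lengths.

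The edgeR function filterByExpr, grouped by genotype with a minimum count of 10 and a minimum total of 15, kept 16119 genes. After TMM scaling, edgeR 4.0.16 (R 4.3.3) tested the counts (quasi-likelihood F test, robust), all 6 libraries in each fit, with Benjamini-Hochberg adjustment over all genes tested and a threshold of 0.05. SE was taken from F, as the size of the log2 fold over its square root. The fits were genotype as a factor, the number of mutant alleles, genotype with sex, and alleles by sex. Log2 CPM used a prior count of 2. The UTRmut against WT fit was also run on simulated counts. Alternatives were DESeq2 1.42.0, other factors and filters, a fit without robust estimation, left-out libraries, a replicate block and fits of 2 genotypes. A count of 0 in a library allows up to 3 counts, 0.251 to 0.316 CPM by library total. Intervals and floors cover counting error only.

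The members and lists were chosen with earlier results of these data known. The naming rule took the 6 members, Mmp9, from each list of genes around AP-1 the 2 or 3 tested genes with the smallest p in UTRmut against WT and any that passed, and for each member the 3 nearest genes in centred log2 CPM. Marker lists, to which the rule also applies, are given as sums and by the genes that passed. Fosl1 and Maff are each in more than 1 list, and Mmp9 is also a listed target.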

Additional observations from a re-analysis of the deposited data

Results flagged for a closer look

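There were 3 results that stood out because the change per mutant allele differed between females and males by a test of the difference itself. Fosb and Fosl2 had the more positive slope in females, by 0.65 and 0.68 log2 units per allele (edgeR, Benjamini-Hochberg adjusted p = 0.00820 and 0.0211). Junb had the more positive slope in males, with a difference (females minus males) of -0.67 (adjusted p = 0.00487). Each sex had 1 library per genotype, so these p-values rest on departures from a straight line and not on variation between replicates. The WT female was the lowest of the 6 libraries for Fosb and Fosl2, and the UTRmut male the highest for Junb. In the female libraries Fosb was at 15.4, 30.2 and 41.8 CPM with 0, 1 and 2 mutant alleles and Fosl2 at 73.3, 137 and 165 CPM. In the male libraries Junb was at 83.7, 107 and 177 CPM. Each call was lost without 1 library, Fosb (0.41) and Fosl2 (0.38) without the WT female and Junb (-0.45) without the UTRmut female. In these fits the number of calls over all genes fell too. Without the UTRmut male Junb was at -0.48. The cause was not tested.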

How the results depend on the processing

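Over all genes 1, 2, 2, 0, 6 and 194 passed in UTRmut against WT, het against WT, UTRmut against het, per allele, between the sexes and in the difference between the sexes per allele. Without a filter on low counts there were 27, 13, 28, 19, 92 and 600. DESeq2 called 8 in UTRmut against WT, 7 in UTRmut against het, 4 per allele, 10 between the sexes and 77 in the difference between them. With at least 1 CPM in every library there were 0 in UTRmut against WT, 1 in het against WT and 0 between the sexes. Without robust estimation there was 1 in UTRmut against het and there were 121 in the difference between the sexes. With only the genotypes compared there were 3, 1 and 10 in the genotype comparisons. With 1 library left out, 1 genotype has a lone library that is assumed to vary like the others. The counts then ranged from 2 to 124, 1 to 41, 0 to 12, 0 to 45, 7 to 198 and 15 to 753, with the highest of the genotype and per-allele counts, other than UTRmut against het, without WT replicate 2.

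The replicate number coincides with the sex, and the labels do not say whether it also marks a shared litter or day. The differences between numbers correlated across genes at 0.196 (UTRmut and het), 0.080 (UTRmut and WT) and 0.295 (het and WT). With the replicate block 4 genes passed in UTRmut against WT and 4 in UTRmut against het, and no member passed under it.

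Of the values of single members, 441 kept their direction and their side of the threshold, 17 passed only under the alternative, 3 no longer passed and 19 turned direction. Of the 19, 1 came from scaling, Jund in the difference between the sexes (-0.018 with upper-quartile factors). The others came from left-out libraries and are given as ranges over the 6 such fits. In UTRmut against WT Fosl2 had -0.040 to 1.04 and Junb -0.067 to 0.87. In het against WT Fosb had -0.035 to 1.13 and Fosl2 -0.19 to 0.88. In UTRmut against het Fos had -0.039 to 0.40, Fosl2 -0.012 to 0.30, Junb -0.28 to 0.65 and Jund -0.15 to 0.27. Per allele Jun had -0.018 to 0.15. Between the sexes Fosl2 had -0.50 to 0.18, Jun -0.16 to 0.17 and Junb -0.40 to 0.28, and in the difference between the sexes Jun had -0.67 to 0.18 and Jund -0.32 to 0.34. The cause was not tested. Scaling moved the median of all genes by less than 0.1 log2 units. RLE in place of TMM factors moved no member's CPM by over 0.350%.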
